A study of Mus musculus with 4 samples.

Results

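The genes described here are the inter-alpha-trypsin inhibitor heavy chains Itih1 to Itih5 and the acute-phase proteins Hp, Saa3, Lcn2 and Orm1, measured in mammary glands of mice with and without Mt2-mmp, a matrix metalloproteinase anchored in the cell membrane and encoded by Mmp15. Members were the probe sets annotated to exactly 1 of these 9 symbols. That gave 9 probe sets for 8 genes, of 45037 probe sets in all, with a pair of probe sets for Itih5 and none listed for Orm1. Whole inguinal mammary gland was taken at postnatal day 10 from global Mt2-mmp(-/-) knockouts and from wild-type Mt2-mmp(+/+) littermates, on a C57BL/6J congenic background. Each genotype had 2 Affymetrix 3′ IVT arrays, which the labels call biological replicates. How many mice went into an array, their sex and the deleted part of Mmp15 are not stated in the labels, so p-values measure only the spread between these arrays. The members were chosen by family and function around Itih4, which was selected on its low knockout value, so their differences between genotypes are a description and no p-value is given for a member.

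The heavy chains are plasma proteins made mainly by liver. Those of Itih1, Itih2 and Itih3 are joined through a chondroitin sulfate chain to bikunin, the product of Ambp, and can be passed to hyaluronan by TSG-6 (Tnfaip6), which stabilises hyaluronan-rich matrix. Itih4 lacks the conserved site for that link, is cleaved in human by plasma kallikrein and is counted among the acute-phase proteins, while Itih5 is made in many tissues outside liver, fat among them. Acute-phase proteins are secreted when interleukin-6 and interleukin-1 act through STAT3, C/EBP and NF-kB factors. Several of them, including haptoglobin (Hp) and lipocalin 2 (Lcn2), are also made by fat, epithelium or neutrophils.

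The start of the gene is shown for the heavy chains with the largest differences in each direction, since both belong to the same family and lie in clusters with other heavy chains. Promoter sequences were listed in RefSeq for 7 of the 9 members (build GRCm38.p6). Each line gives 250 bases before the start annotated for the promoter, 5′ to 3′ on the gene's own strand. That start can lie inside the gene's full span, as it does for Itih5, Itih3 and Saa3. The first window is chr14:30886226-30886475, plus strand, and the second is chr2:10153293-10153542, plus strand. Capitals mark matches to TTCNNNGAA (the core bound by STAT factors) or TTGCNNAA (a C/EBP core), searched on both strands.
Itih4: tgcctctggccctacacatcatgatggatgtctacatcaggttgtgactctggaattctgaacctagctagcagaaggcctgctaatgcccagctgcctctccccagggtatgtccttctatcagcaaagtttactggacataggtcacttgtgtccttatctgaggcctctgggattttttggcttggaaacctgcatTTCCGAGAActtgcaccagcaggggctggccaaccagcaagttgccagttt
Itih5: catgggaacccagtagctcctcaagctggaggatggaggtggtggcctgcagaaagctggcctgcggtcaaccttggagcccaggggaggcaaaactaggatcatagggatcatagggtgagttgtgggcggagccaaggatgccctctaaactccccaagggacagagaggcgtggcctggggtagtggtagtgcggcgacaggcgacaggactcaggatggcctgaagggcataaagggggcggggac
The Itih4 window held 1 STAT match, starting 51 bases before the annotated start, and the Itih5 window held neither motif. Among 32536 distinct RefSeq windows of this length 7.04% held the STAT core and 9.57% the C/EBP core. Windows of Itih2, Lcn2 and Saa3 held 1 C/EBP match each, and those of Itih1 and Itih3 held neither motif. A match is only a run of letters in the window.

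Hair follicle markers set knockout 1 and wild type 2 apart from the others, with sums of 5329 in knockout 1 and 346 in knockout 2, against 342 in wild type 1 and 4539 in wild type 2. Epithelial and fat genes were detected: Krt8 lay at 9.01 to 9.47, Epcam at 9.21 to 9.54, Krt14 at 7.87 to 8.22 and Adipoq at 13.14 to 13.26. The luminal hormone receptor genes Esr1 and Pgr, named after their values were seen, were dim, at 3.82 to 3.98 and 4.45 to 4.71. These genes alone do not identify the tissue. No probe set was named for Mmp15, so the target was not analysed here and gives no check of the genotypes.

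Itih4 was far lower in knockout glands (pairs of values here are replicate 1, then replicate 2). Its RMA log2 value, the authors' normalized expression value, was 5.57 in knockout 1 and 5.57 in knockout 2, against 7.19 in wild type 1 and 7.44 in wild type 2. The knockout arrays were nearly equal, the genotypes did not overlap, and the gap between the nearest arrays was 1.61. The knockout mean was 5.57 ± 0.0032 and the wild-type mean 7.31 ± 0.18 (SD, n = 2 arrays per genotype), a log2 difference of -1.74 (SE 0.10), or 3.35-fold lower with a 95% interval of 2.81 to 3.99. That interval, like those of the other members, takes no account of the members having been chosen with these values known. With each of 17097 genes taken by its brightest probe set, Itih4 had the lowest log2 difference of all. Over all probe sets its difference ranked 7 by size. Between arrays of like hair follicle signal it was -1.87 (knockout 1 minus wild type 2) and -1.62 (knockout 2 minus wild type 1), and with any 1 array left out it ran from -1.87 to -1.62. The knockout level lay above the median of 23 nonspecific control probe sets, which was 3.26 to 3.28 per array, and below the brightest of them, which was 6.78 to 6.96 per array. The design has 1 Itih4 probe set, so no second one bears on this difference and transcript variants of the gene cannot be told apart.

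**Figure D1:**
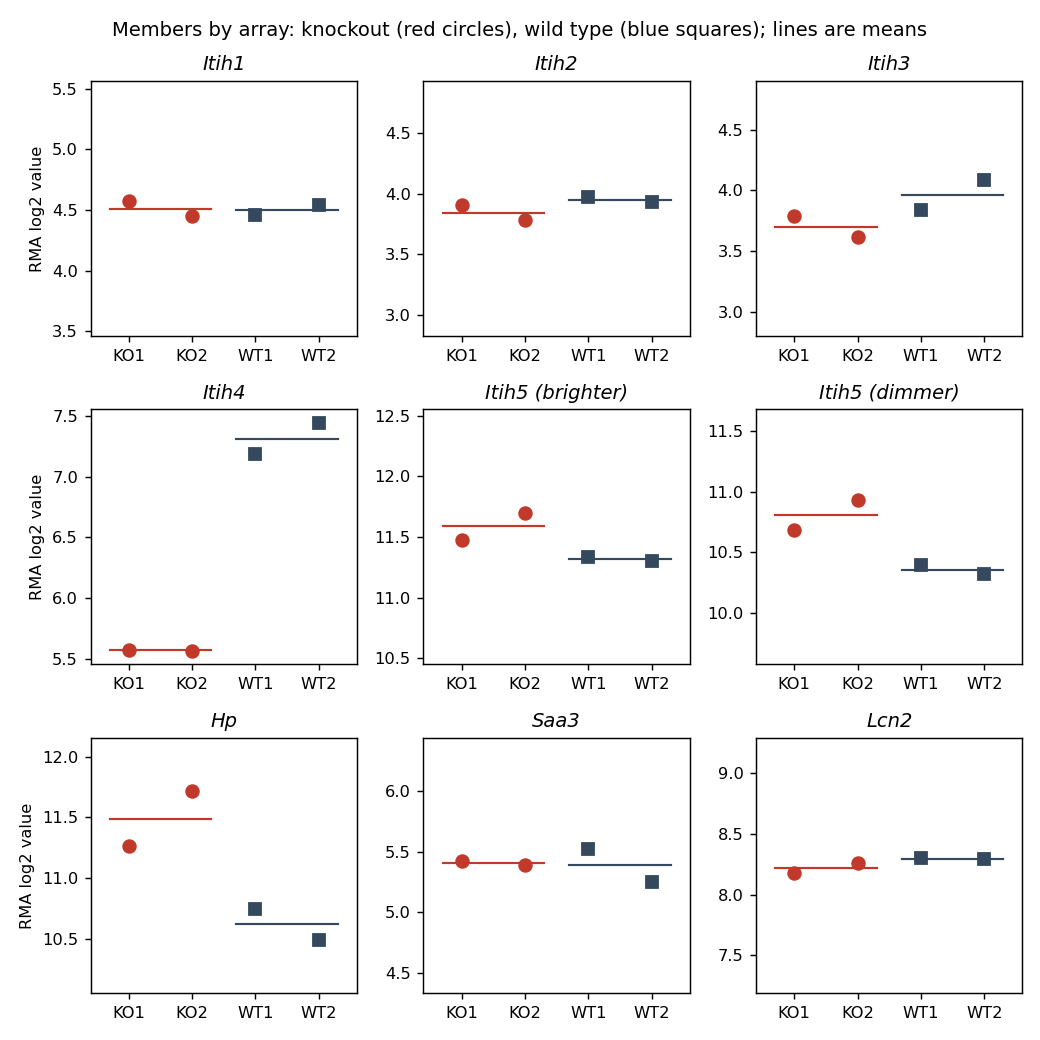
RMA log2 value of each member probe set on the 4 arrays, knockout (KO, red circles) left of wild type (WT, blue squares), with group means as lines; every panel spans the same height on the log2 scale. Itih4 lies at 5.57 in both knockouts against 7.19 and 7.44 in wild type, and Hp and both Itih5 probe sets lie higher in knockouts.

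Itih4 shares a cluster on chromosome 14 with Itih3, the heavy chain of pre-alpha-inhibitor, and Itih1, a heavy chain of inter-alpha-inhibitor. Itih3 had log2 values of 3.79 and 3.62 in the knockout arrays, against 3.84 and 4.08 in the wild-type arrays. These values lie near the nonspecific controls, and the nearest arrays of the genotypes were 0.053 apart. The Itih3 difference was -0.26 (SE 0.11), and it was -0.14 without wild type 2. Itih1 was also dim, at 4.57 and 4.45 in the knockout arrays against 4.46 and 4.54 in the wild-type arrays, with overlapping genotypes and a difference of 0.01 (SE 0.079). With 1 array left out it ran from -0.04 (without knockout 1) to 0.07 (without knockout 2).

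The log2 differences of the 5 measured genes on each side of the cluster ran from -0.19 to 0.16, with 5 above and 5 below 0 and a median of 0.025. The extremes were Sfmbt1, a chromatin-binding repressor, at -0.19 (SE 0.069), and Smim4, a small membrane protein, at 0.16 (SE 0.077). Mustn1, a musculoskeletal gene next to Itih4, had 0.11 (SE 0.10). None of the 10 came near the Itih4 difference in the plot of the chromosome 14 neighbours.

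**Figure D2:**
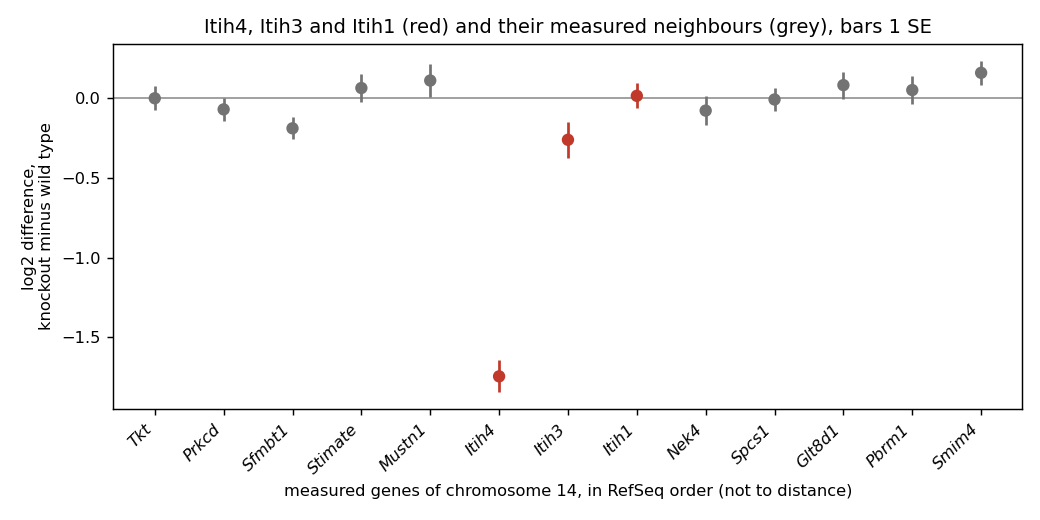
Log2 difference, knockout minus wild type, of Itih4, Itih3 and Itih1 (red) and the 5 measured genes on each side (grey), in RefSeq gene order on chromosome 14 and not to distance; bars are 1 SE of the limma fit. Itih4 lies at -1.74, while its measured neighbours lie between -0.19 and 0.16.

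Itih2 and Itih5 lie next to each other on chromosome 2, on opposite strands. Itih2, the partner of Itih1 in inter-alpha-inhibitor, was dim, with 3.90 and 3.78 in the knockout arrays against 3.97 and 3.93 in the wild-type arrays. Its nearest arrays were 0.024 apart, and the difference was -0.11 (SE 0.076), with -0.05 without knockout 2 and -0.17 without knockout 1. Itih5 was bright, and its difference lay on the other side of 0 from that of Itih4. Its brighter probe set had log2 values of 11.48 and 11.70 in the knockout arrays, against 11.34 and 11.30 in the wild-type arrays. The dimmer one had 10.68 and 10.93 in the knockout arrays against 10.40 and 10.32 in the wild-type arrays. Both probe sets separated the genotypes without overlap and ranked the arrays alike, with knockout 2 highest and wild type 2 lowest. Differences were 0.27 (SE 0.095) for the brighter and 0.45 (SE 0.10) for the dimmer probe set, and 0.16 and 0.33 without knockout 2.

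Haptoglobin, which binds free haemoglobin, had the highest difference among the members. Hp had log2 values of 11.26 and 11.72 in the knockout arrays, against 10.75 and 10.49 in the wild-type arrays. The genotypes did not overlap, and the nearest arrays were 0.51 apart. The knockout mean was 11.49 ± 0.32 and the wild-type mean 10.62 ± 0.18 (SD, n = 2 arrays per genotype), a log2 difference of 0.87 (SE 0.17), or 1.83-fold with a 95% interval of 1.35 to 2.47. Only 16 of 17097 genes, each by its brightest probe set, had a higher difference. Leaving out knockout 2 gave 0.64, and leaving out knockout 1 gave 1.10. Between arrays of like hair follicle signal Hp differed by 0.77 (knockout 1 minus wild type 2) and 0.97 (knockout 2 minus wild type 1).

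Hp lies on chromosome 8, as does Mmp15, with 106 steps in the order of measured genes between them. The 10 measured genes nearest to Hp had log2 differences from -0.12 to 0.15, with a median of -0.0076.

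The remaining acute-phase members were nearly level. Lcn2, which binds iron-carrying siderophores, had 8.18 and 8.26 in the knockout arrays against 8.30 and 8.29 in the wild-type arrays, a difference of -0.07 (SE 0.070). Its 95% interval ran from -0.25 to 0.10 on the log2 scale. Leaving out knockout 1 gave -0.03 for Lcn2, and leaving out knockout 2 gave -0.12. Saa3, a serum amyloid A made outside liver, had 5.42 and 5.39 in the knockout arrays, between 5.52 and 5.25 in the wild-type arrays. The Saa3 difference was 0.02 (SE 0.10), with a 95% interval from -0.24 to 0.28, and it was -0.12 without wild type 2 and 0.15 without wild type 1. Shifts within these intervals were not resolved with 2 arrays per genotype. Orm1, an orosomucoid, was not analysed here.

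As a group the members had no shared direction. The median log2 difference of the 8 genes was -0.030, with 4 above and 4 below 0, against -0.0022 over all 17097 genes. Arrays of the genotypes did not overlap in 4 of 9 member probe sets with lower values in knockouts and in 3 with higher values. Over all probe sets 18.6% were separated with lower and 17.7% with higher knockout values, and nothing is read from the comparison, because the members were chosen with these values known. By limma at an adjusted p under 0.05, 0 of 9 member probe sets were called, where 0.00444% of all were called, namely the 2 probe sets of lowest p, for Prdx2, a peroxiredoxin, and Gadd45gip1, a mitochondrial ribosome protein. At an unadjusted p under 0.05, limma gave 4 of 9 member probe sets, against 6.65% of all. These counts come from the main fit, and some alternative settings called Itih4, as given at the end. They are given only beside their background and support nothing about the members.

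With each gene taken by its brightest probe set, the 5 whose profile over the 4 arrays was nearest to that of Itih4 were Gadd45gip1, Cyp2e1, Acot1, Nlrc5 and Cabp4. Likeness was the root mean square difference of log2 values after each probe set's own mean was subtracted. It was 0.149 for Gadd45gip1, with 7.45 and 7.42 in the knockout arrays against 8.95 and 8.94 in the wild-type arrays. It was 0.171 for Cyp2e1, an ethanol-oxidising cytochrome P450, with 10.34 and 10.02 in the knockout arrays against 11.69 and 11.73 in the wild-type arrays. Acot1, an acyl-CoA thioesterase, was at 0.249, Nlrc5, an activator of MHC class I genes, at 0.318, and Cabp4, a calcium-binding protein, at 0.330. Each of these 5 was lower in both knockout arrays than in either wild-type array, by differences of -1.57 to -1.26. With 4 arrays such closeness mostly restates that a gene was low by a like amount in knockouts.

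**Figure D3:**
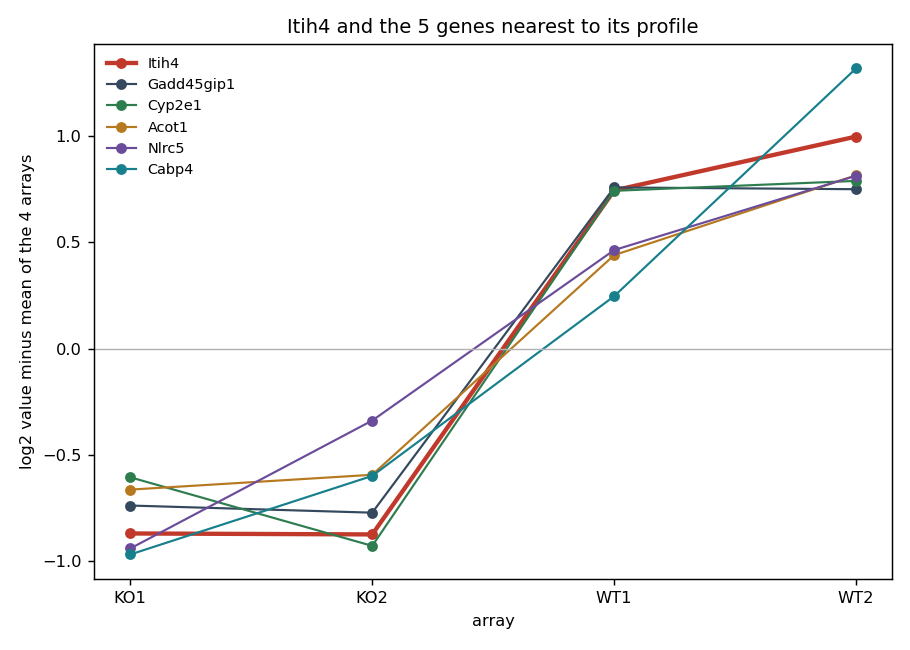
Log2 value minus the mean of the 4 arrays for Itih4 (thick red line) and the 5 genes of nearest profile, knockout arrays (KO) left of wild-type arrays (WT). All 6 genes lie below their own mean in both knockouts, and Itih4 and Gadd45gip1 have nearly equal values in the knockout pair.

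Differences of the other plasma proteins of the acute phase lay on both sides of 0. Of 29 listed genes 25 were measured, 14 above and 11 below 0, with a median log2 difference of 0.036. None passed by limma in either direction (lowest adjusted p = 0.721), while 4 (16%) had an unadjusted p under 0.05, all higher in the knockout arrays, beside 7.36% of all genes. Lrg1, a secreted leucine-rich glycoprotein, had log2 values of 9.06 and 9.49 in the knockout arrays against 8.77 and 8.70 in the wild-type arrays, a difference of 0.54 (SE 0.15). Lbp, which carries bacterial lipopolysaccharide, had 8.53 and 8.79 in the knockout arrays against 8.32 and 8.28 in the wild-type arrays, a difference of 0.37 (SE 0.10). Cp, the copper-carrying ferroxidase ceruloplasmin, had 8.42 and 8.73 in the knockout arrays against 8.22 and 8.16 in the wild-type arrays, a difference of 0.39 (SE 0.11). Dimmer probe sets of Lbp and Cp had 0.18 and 0.17.

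Cfb, complement factor B, was named after its values were seen, as was Apcs, a pentraxin. Cfb had 8.14 and 8.46 in the knockout arrays against 8.06 and 7.70 in the wild-type arrays. Lrg1, Lbp, Cp, Cfb and the dim Apcs ranked the arrays as Hp and Itih5 did, with wild type 2 lowest, then wild type 1, knockout 1 and knockout 2. That order held in 5 of 25 genes of the list and in 5.21% of all genes. It was read from the members, and the list was chosen with earlier results known, so nothing is read from these shares. The liver-type genes Saa1, Saa2, Orm2 and Hpx, the haem carrier hemopexin, lay near the nonspecific controls. Saa1 had a difference of -0.15 (SE 0.084), Saa2 of 0.01, Orm2 of -0.01 and Hpx of -0.04. Fgg, a fibrinogen chain named after its values were seen, was brighter, with overlapping genotypes. It had 7.58 and 7.18 in the knockout arrays against 7.26 and 7.14 in the wild-type arrays, a difference of 0.18 (SE 0.14). Saa1 and Saa2 are near-identical genes, so their probe sets may share signal. Serpina3n, a protease inhibitor of the acute phase, had 0.22 (SE 0.16) with overlapping genotypes. Bright genes of the list were not all higher: the complement genes Serping1 and C4b, named after their values were seen like the metallothionein Mt1, had 0.04 and -0.09, and Mt1 had -0.06, all with overlapping genotypes.

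**Figure D4:**
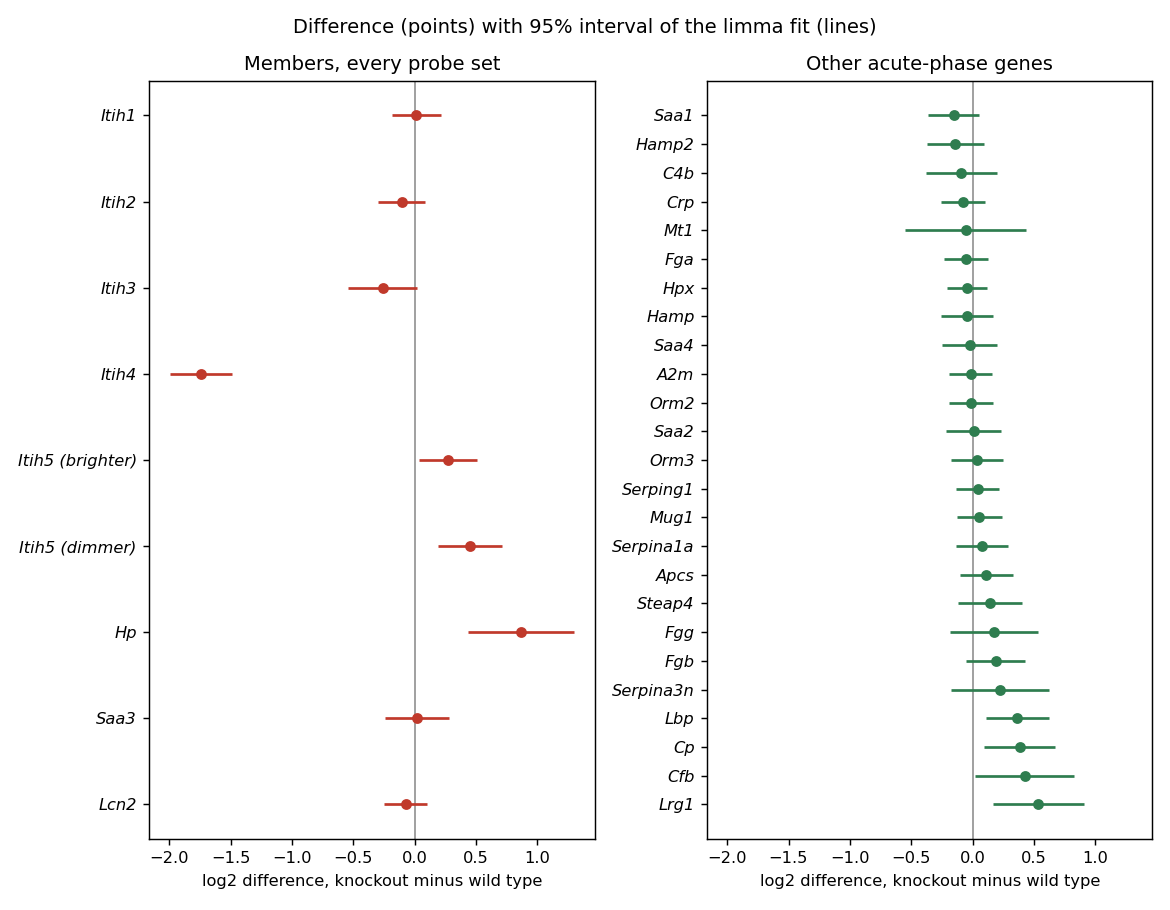
Log2 difference, knockout minus wild type (points), with the 95% interval of the limma fit (lines), for the 9 member probe sets (left) and for the 25 other acute-phase genes measured, each by its brightest probe set (right). Itih4 at -1.74 and Hp at 0.87 lie beyond all of the other acute-phase genes, which run from -0.15 to 0.54.

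Partners of the heavy chains in hyaluronan matrix mostly lay near 0. Of 20 listed genes 18 were measured, 7 above and 11 below 0, with a median of -0.030. None passed by limma in either direction (lowest adjusted p = 0.721). By limma 1 (5.56%), lower in the knockout arrays, had an unadjusted p under 0.05, beside 7.36% of all genes. Ptx3, a pentraxin that joins heavy chains in hyaluronan matrix, had 7.15 and 7.46 in the knockout arrays against 7.74 and 7.67 in the wild-type arrays. Its difference was -0.41 (SE 0.12), but its other probe set had -0.0048. Ambp, the bikunin precursor, was dim and had -0.14 (SE 0.075). Tnfaip6, which transfers heavy chains, had 8.46 and 8.26 in the knockout arrays against 8.66 and 8.41 in the wild-type arrays, a difference of -0.18 (SE 0.12) with overlapping arrays. The hyaluronan synthases Has1, Has2 and Has3 had 0.12 (SE 0.094), 0.11 (SE 0.24) and 0.09 (SE 0.17), all with overlapping genotypes. The other Has2 probe set had 0.01. The hyaluronan receptor Cd44 had -0.10, with its 4 probe sets from -0.10 to 0.05. The hyaluronidases Hyal1 and Hyal2 had 0.03 and -0.03.

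Cytokines, receptors and transcription factors of the acute-phase response were also measured (25 of 28 listed genes, 12 above and 13 below 0, median -0.00067). None passed by limma in either direction, with a lowest adjusted p of 0.512 for Cebpb. By limma 3 (12%), all higher in the knockout arrays, had an unadjusted p under 0.05, beside 7.36% of all genes. Cebpb, a C/EBP factor of the acute phase and of fat cell differentiation, had 11.10 and 11.12 in the knockout arrays against 10.58 and 10.61 in the wild-type arrays, a difference of 0.51 (SE 0.066). The 3 probe sets of Cebpb ran from 0.08 to 0.63. Cebpd, a related factor, had 0.21 (SE 0.075), and Nfkbiz, an inducible NF-kB cofactor, had 0.24 (SE 0.079). Upstream genes lay nearer 0, with Il6 at 0.02, Il1b at 0.03, the receptor genes Il6ra, Il6st, Il1r1 and Osmr at -0.14, -0.09, 0.12 and 0.14, Stat3 at -0.11 and its feedback inhibitor Socs3 at -0.06. Other probe sets of Il6ra, Il6st and Osmr reached 0.03, 0.04 and -0.08, on the other side of 0. Il6 and Il1b were dim, with values of 3.30 to 3.42 for Il6.

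Receptors and binding partners of the members (11 of 12 listed genes measured, 5 above and 6 below 0, median -0.024) held no limma call in either direction (lowest adjusted p = 0.746). By limma 1 (9.09%), higher in the knockout arrays, had an unadjusted p under 0.05, beside 7.36% of all genes. Cd163, the scavenger receptor for haptoglobin bound to haemoglobin, had a difference of -0.04 (SE 0.12), and Hmox1, which degrades haem, had -0.35 (SE 0.15). Hmox1 values were 6.66 and 7.09 in the knockout arrays against 7.28 and 7.18 in the wild-type arrays, without overlap. Slc22a17, a receptor for Lcn2, had -0.02, Lrp1 had 0.12, and Mmp9, which in human forms a complex with Lcn2, had 0.18. The dimmer probe sets of Lrp1 and Mmp9 had -0.05 and 0.07.

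In whole tissue, fewer cells of a type and less RNA per cell cannot be told apart. Summed linear levels of marker lists are therefore given beside the members, in the units of the array. Luminal markers, 10 of 11 below 0 as Itih4 was, summed to 3173 and 3004 in the knockout arrays against 3838 and 3534 in the wild-type arrays. Basal markers, 8 of 8 below 0, summed to 5723 and 5737 in the knockout arrays against 6234 and 5934 in the wild-type arrays. Brown fat markers, 8 of 8 above 0, summed to 14842 and 11178 in the knockout arrays against 7915 and 7620 in the wild-type arrays. Endothelial markers, 7 of 8 above 0, summed to 5719 and 6944 in the knockout arrays against 5594 and 5571 in the wild-type arrays. That sum ranked the arrays as Hp did, but of its single genes only Tie1 had this order. Fibroblast markers, 7 of 9 above 0, summed to 31346 and 32002 in the knockout arrays against 30990 and 28801 in the wild-type arrays. Their sum had the order of Hp too, but of the single genes only Thy1 and Col1a1 had it.

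Macrophage markers, 12 of 12 below 0, summed to 6051 and 6532 in the knockout arrays against 6916 and 6585 in the wild-type arrays. Neutrophil markers, 7 of 10 below 0, summed to 686 and 868 in the knockout arrays against 971 and 916 in the wild-type arrays. White fat markers had 4 of 7 above 0 and overlapping sums, 29236 and 31892 in the knockout arrays against 31926 and 30922 in the wild-type arrays. Liver markers had 7 of 13 above 0 and sums of 382 and 422 in the knockout arrays against 374 and 322 in the wild-type arrays. Their sums also ranked the arrays as Hp did, but no single gene of the list had that order. Alb, albumin, was the brightest of them. It had log2 values of 7.10 and 7.54 in the knockout arrays against 7.15 and 6.34 in the wild-type arrays. Apoa1, a liver apolipoprotein, lay nearer the nonspecific controls, at 4.33 and 4.34 in the knockout arrays against 4.40 and 4.44 in the wild-type arrays. Skeletal muscle markers, 9 of 9 above 0, were highest in knockout 2, with 183 and 443 in the knockout arrays against 229 and 197 in the wild-type arrays. The part of these markers in the member values was not tested.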

How the data were processed

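The authors' deposited log2 values were made with RMA and the affy package, as named in the submitters' processing notes, which give no version or setting to go by here. As a method, RMA forces the arrays to a common distribution and compresses differences of dim probe sets. The 4 arrays had medians of 5.20 to 5.21, and their number, not a depth, limits precision (median SE of a log2 difference 0.081).

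The file held 45141 probe sets, and 104 array controls were left out. The platform annotation gave 28898 probe sets 1 symbol and 551 several, and 15588 were not listed. Knockout was compared with wild type in R 4.3.3 with limma 3.58.1 (lmFit, eBayes), two-sided, with Benjamini-Hochberg adjustment over 45037 probe sets and no filter. With 2 arrays against 2, exact permutation reaches no p below 0.333. For lists, each gene was taken by its brightest probe set. The script was tested on simulated data. The members, lists and motifs were chosen with earlier results of these data known. Genes named were all members, a preset selection of each list and its 2 of smallest p, the 5 nearest to Itih4 and the extremes of its neighbours. Alternatives were quantile normalization, median centring, brighter probe sets, gene-level summaries, trend or robust variances, a replicate block and each array left out, and a crossed block was added after the data were seen.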

Additional observations from a re-analysis of the deposited data

How the results depend on the processing

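The Itih4 difference kept its sign in all 13 alternatives. It ran from -1.75 to -1.74 with all arrays and from -1.87 to -1.62 with 1 array left out. Itih4 has 1 probe set, so settings that change only variances, blocks or the choice of probe sets return the same difference. With 2 arrays per genotype, leaving 1 out cannot move the difference beyond the pooled spread between replicates. Those runs are therefore no test of stability. The number of probe sets called by limma at an adjusted p under 0.05 was 2 and depended on the setting. It was 5 with quantile normalization, 5 with median centring, 5 with the brighter probe sets only, 5 with an intensity trend and 5 with robust variances. Itih4 was among the 5 in each of these settings. Because Itih4 was selected on its low knockout value, these calls support nothing about it. The number called was 1 with 1 probe set per gene and 0 with probe sets averaged per gene (1185 at an unadjusted p under 0.05 by limma). With the replicate block the number called was 0 (3131 at an unadjusted p under 0.05 by limma), and the other results kept their values. The labels' numbers do not pair the arrays beyond a number, and same-numbered arrays deviated with a correlation of -0.295. A block pairing knockout 1 with wild type 2, added after the data were seen, gave 0 calls (2558 unadjusted, limma). With 1 array left out, limma calls ran from 0 to 5. The 5 came without wild type 1, and the 0 came without knockout 1, knockout 2 or wild type 2 (2267, 2786 and 2101 unadjusted). The cause of these changes was not tested, except that leaving out an array gives fewer samples. The median over the members was -0.030, 0.019 with the brighter probe sets only, which leaves 5 of the 8 genes, and -0.097 to -0.0048 with 1 array left out. No gene of the context lists was called by limma in any of the 13 alternatives. With 2 arrays per genotype this does not show that they were unchanged. In the main fit Cebpb, with a difference of 0.51 (SE 0.066), had an adjusted p of 0.512 by limma.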
